A study of Brassica oleracea with 12 samples.

Results

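Chlorophyll is taken apart in the chloroplast by a fixed series of enzymes. NOL, with its partner NYC1, reduces chlorophyll b, and hydroxymethyl chlorophyll a reductase turns the product into chlorophyll a. After magnesium and the phytol tail are removed, the pheophorbide a oxygenase ACD1 opens the ring, and the red chlorophyll catabolite reductase ACD2 reduces the product of that step to a fluorescent catabolite. The series runs in senescing leaves, and in Arabidopsis loss of ACD1 or ACD2 gives lesions, for which both are named (accelerated cell death).

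The 4 entries described here are ACD1, NOL, ACD2 and Bo5g004750;Bo5g004760, the hydroxymethyl chlorophyll a reductase homolog. They were taken by name from the 45714 entries of a table of poly(A) RNA levels. All 4 of the 4 reached 1 FPKM (fragments per transcript length and library total) in at least 3 libraries and were among the 27272 entries tested. The plant is JC007-2B, a cultivar of ornamental kale (Brassica oleracea L. var. acephala), and no treatment is labelled. S1 leaves are red and S2 leaves red in the middle with green edges, and both were taken whole with their veins removed. At S3 the leaf was divided into S3_C, its red center, and S3_S, its green margin. Each group has 3 libraries. The labels do not say whether veins were removed at S3, whether plants were pooled, or whether the 3 libraries of a group are separate plants, so p-values measure the spread between libraries, which may be technical. Because FPKM is a level per length within bulk tissue, fewer cells of a type and less RNA per cell cannot be told apart.

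The annotation behind the 4 entries is uneven. ACD1 holds 1 transcript, the annotated Bo1g063840.1, and is projected from the Arabidopsis gene AT3G44880. NOL holds 2 transcripts, 1 of them the annotated Bo3g003030.1, and is projected from AT5G04900. The reductase entry joins 2 annotated genes into 3 transcripts, projected from AT1G04620, so its value cannot be divided between Bo5g004750 and Bo5g004760. ACD2 holds 2 assembled transcripts and 0 annotated ones, without a description, so its identity rests on the symbol in the deposited table. For each of the 3 described entries, 1 entry in the table carries that Arabidopsis identifier. How reads shared between duplicated genes were assigned is not given in the sources used here.

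FPKM summed to between 426981 and 470320 per library and 19.7% to 23.3% of entries were listed at 0. Depth is known only relative to S1 replicate 1, from the spacing of the lowest values, at 0.663 to 1.0. By correlation, S1 replicates 2 and 3 were the only libraries closest to one of their own group. Across genes, which are not independent replicates, S1 replicate 1 correlated best with a library of S2, replicate 2 (r = 0.941), and had r of 0.749 and 0.761 with the rest of S1, and S3_S replicate 3 correlated best with replicate 3 of S1 (r = 0.912). Of 6 mesophyll marker genes 5 were matched, and their summed level was 4535, 664 and 633 FPKM in S1 replicates 1, 2 and 3, 2477 to 5432 in S2, 2559 to 5862 in S3_C and 1998 to 3303 in S3_S. The antenna gene LHCB3 among them was listed at 0 in 11 of 12 libraries. Of 8 vascular markers 1 was matched, the xylem peptidase XCP1, and of 4 epidermal markers 1, the wax gene CER1.

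NOL, which acts first, ranged from 7.45 FPKM in S3_S replicate 2 to 24.3 FPKM in S3_C replicate 2. Its level was 13.4, 7.89 and 9.94 FPKM in S1, 10.2, 15.6 and 19.2 in S2, 17.2, 24.3 and 10.5 in S3_C and 9.94, 7.45 and 10.2 in S3_S, for replicates 1, 2 and 3. The center libraries were all above the margin libraries, by a narrow distance, and every other pair of groups overlapped. The group means followed the order S3_C (17.3 ± 6.88, SD, n = 3), S2 (14.98 ± 4.54), S1 (10.4 ± 2.76) and S3_S (9.20 ± 1.52), and the libraries of each pair of neighbours in that order overlapped.

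The reductase entry Bo5g004750;Bo5g004760, which acts second, was the steadiest of the 4. Its level was 65.4, 32.5 and 46.4 FPKM in S1, 44.0, 64.4 and 79.3 in S2, 61.3, 75.3 and 62.8 in S3_C and 62.2, 47.6 and 46.2 in S3_S. All pairs of groups overlapped, with S3_C tight and S1 and S2 wide. Means were 66.4 ± 7.68 FPKM in S3_C, 62.6 ± 17.7 in S2, 52.0 ± 8.87 in S3_S and 48.1 ± 16.5 in S1 (SD, n = 3).

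ACD1, the ring-opening step, varied far more. Its level was 57.0, 10.01 and 15.7 FPKM in S1, 17.7, 43.6 and 101.2 in S2, 69.3, 132.02 and 62.7 in S3_C and 47.9, 30.4 and 24.2 in S3_S. All 3 center libraries lay above all libraries of S1 and of S3_S, while S2 was spread widely and overlapped every other group. Means were 88.0 ± 38.3 FPKM in S3_C, 54.1 ± 42.8 in S2, 34.1 ± 12.3 in S3_S and 27.6 ± 25.6 in S1 (SD, n = 3). S2 differed from neither neighbour in that order beyond its spread.

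ACD2, the next step, was the least abundant of the 4. Its level was 14.5, 1.79 and 0.637 FPKM in S1, 3.52, 3.63 and 3.66 in S2, 4.23, 12.4 and 1.69 in S3_C and 2.01, 1.79 and 0.716 in S3_S. S1 replicate 1 and S3_C replicate 2 stood apart from the other 10 libraries, which did not exceed 4.23 FPKM, and the 3 margin libraries all lay below the 3 S2 libraries. Means were 6.12 ± 5.62 FPKM in S3_C, 5.64 ± 7.68 in S1, 3.60 ± 0.0746 in S2 and 1.51 ± 0.693 in S3_S (SD, n = 3), so the first pair in the order rests on 1 library each.

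**Figure D1:**
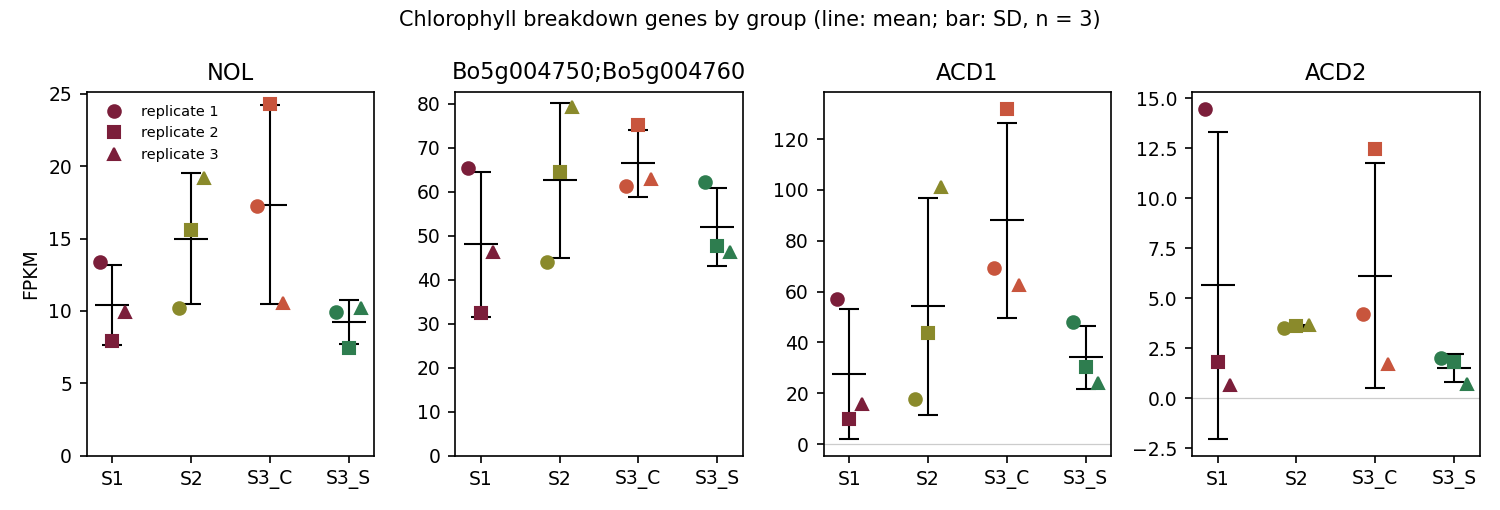
FPKM of the 4 genes (vertical axes, each with its own scale) in S1, S2, S3_C and S3_S (horizontal axis), with 1 point per library, the mean as a line and the SD as a bar (n = 3). S3_C has the highest mean for each gene, and S3_C replicate 2 reaches 132.02 FPKM for ACD1 and 24.3 FPKM for NOL.

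Across all 12 libraries the highest level was 13.2 times the lowest for ACD1 and 22.7 times for ACD2, against 3.26 times for NOL and 2.44 times for the reductase entry. The SD of log2(FPKM + 1) over the libraries was 1.09 for ACD1, 1.01 for ACD2, 0.49 for NOL and 0.37 for the reductase entry, beside a median of 0.47 over all tested genes. ACD1 thus varied more than 91.8% of tested genes and ACD2 more than 89.9%, while the reductase entry varied more than 34.0%. Libraries of the same group also varied: the SD within groups was 0.95, 1.05, 0.41 and 0.35 for ACD1, ACD2, NOL and the reductase entry. It rests on fewer degrees of freedom than the SD over all libraries, so it gives no share of the whole.

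In level per length, the reductase entry and ACD1 were the most abundant, NOL stood lower and ACD2 lowest, and mean FPKM placed them at the 95.3th, 94.5th, 73.4th and 42.5th percentile of tested genes. The first pair changed places between libraries. ACD1 exceeded the reductase entry in 3 of 12 libraries: 2 of 3 in S3_C, 1 of 3 in S2 and 0 of 3 in S1 and in S3_S. The ratio of ACD1 to the reductase entry was 1.13, 1.75 and 0.998 in S3_C, 0.770, 0.638 and 0.523 in S3_S, 0.401, 0.676 and 1.28 in S2 and 0.872, 0.309 and 0.338 in S1. The center libraries had a higher ratio than any margin or S1 library. The log2 ratio was lower by 0.98 in S3_S than in S3_C and higher by 1.48 in S3_C than in S1, each with p = 0.1 in a two-sided exact permutation test, the smallest value that 3 against 3 libraries allow (adjusted p = 0.692 over 30 such comparisons of 5 ratios). The ratio of the reductase entry to NOL was narrower, between 3.10 and 6.38 in the 12 libraries, and its log2 value was higher by 0.43 in S3_S than in S2 without overlap (exact permutation p = 0.1, adjusted p = 0.692). In the rest of the 30 comparisons the groups overlapped. A share of 0.1 of random orderings of 3 against 3 libraries separates them fully in either direction. Some separations among 30 comparisons are therefore no sign of a difference between the groups.

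S3_S against S3_C asks whether the green margin and the red center of the leaf differ. All 4 members had lower means in the margin: 34.1 ± 12.3 against 88.0 ± 38.3 FPKM for ACD1, 9.20 ± 1.52 against 17.3 ± 6.88 for NOL, 1.51 ± 0.693 against 6.12 ± 5.62 for ACD2 and 52.0 ± 8.87 against 66.4 ± 7.68 for the reductase entry (SD, n = 3). None passed the test: limma on log2(FPKM + 1) with Benjamini-Hochberg adjustment over all tested genes called 0 of 4 members and 0 of 27272 genes higher (0%) or lower (0%). The log2 difference, margin minus center, was -1.32 (SE 0.68, adjusted p = 0.486) for ACD1, -0.79 (SE 0.32, adjusted p = 0.476) for NOL, -1.24 (SE 0.76, adjusted p = 0.514) for ACD2 and -0.35 (SE 0.30, adjusted p = 0.603) for the reductase entry. At an unadjusted p under 0.05, limma had 1 of 4 members, NOL, beside 10.4% of all genes in either direction. The groups did not overlap for ACD1 and NOL, beside 4.85% of all genes with the lower values in the margin and 11.9% with the higher. The median difference of the 4 was -1.01, beside 0.18 for all tested genes, and 34.5% of genes had a lower mean log2 value in the margin. When libraries were scaled by median of ratios, the all-gene median was 0.01 and all 4 differences were still below 0, with ACD1 at -1.54 and NOL at -1.0.

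The size of these differences depended on which center libraries were kept. Without S3_C replicate 2, the log2 difference was -0.99 for ACD1, -0.52 for NOL, -0.62 for ACD2 and -0.26 for the reductase entry, each still below 0 and none called (smallest limma adjusted p = 0.936). Without S3_C replicate 3 it was -1.52 for ACD1, -1.09 for NOL, -1.78 for ACD2 and -0.39 for the reductase entry, again with none called (smallest limma adjusted p = 0.154). The 95% interval of the difference in all libraries ran from -2.82 to 0.19 for ACD1, from -2.90 to 0.43 for ACD2 and from -1.0 to 0.30 for the reductase entry, and these span 0. For NOL it ran from -1.50 to -0.073, below 0, in an interval that takes no account of the number of genes tested.

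S3_C against S1 compares 2 red tissues, the later center and the earlier whole leaf. All 4 means were higher in the center, with ACD1 at 88.0 ± 38.3 against 27.6 ± 25.6 FPKM (SD, n = 3), a log2 difference of 1.93 (SE 0.68, limma adjusted p = 0.213). Of the 4 members, limma called 0, beside 0% of all genes called higher and 0.00733% lower. ACD1 was the 1 member at an unadjusted p under 0.05, beside 21.9% of genes in either direction. It was also the 1 member whose groups did not overlap, beside 5.28% of genes with the higher values in S3_C and 10.1% with the lower. NOL differed by 0.64 (SE 0.32), the reductase entry by 0.51 (SE 0.30) and ACD2 by 0.47 (SE 0.76). The median of the 4 was 0.58, beside -0.18 for all tested genes, and 37.4% of genes were above 0.

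This comparison turned on S1 replicate 1, in which ACD1 was at 57.0 FPKM against 10.01 and 15.7 in the rest of its group. Without that library ACD1 rose by 2.63 on the log2 scale (SE 0.62, limma adjusted p = 0.0169) and was the 1 of 4 members called. In that setting 6.41% of all genes were called higher in S3_C and 16.6% lower. NOL (0.82), ACD2 (1.43) and the reductase entry (0.75) were not called without it, with adjusted p from 0.0807 to 0.114. Without both S1 replicate 1 and S3_C replicate 2, ACD1 had a difference of 2.30 and an adjusted p of 0.0548 by limma, where 3.45% of genes were called higher and 8.24% lower. Without both S1 replicate 1 and S3_S replicate 3 its adjusted p was 0.0183 by limma, where 7.08% were called higher and 18% lower. With S1 replicate 1 kept, the ACD1 difference was smaller without S1 replicate 2 (1.44, limma adjusted p = 0.567) and without S1 replicate 3 (1.74, 0.598). Without S3_C replicate 2 alone, the smallest limma adjusted p of the 4 members was 0.498. S1 replicate 1 also had a mesophyll marker sum of 4535 FPKM against 664 and 633 in the rest of S1. Without S1 replicate 1 alone, the 4 tested mesophyll markers were also called higher in S3_C, with limma adjusted p from 0.0061 to 0.0264. Their log2 differences were 2.66 (LHCA4), 3.29 (GAPB), 1.90 (PSBQ) and 2.68 (PSBR). The part of the mesophyll markers in the ACD1 level was not tested.

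The question in S2 against S1 is whether leaves differ once their edges are green. NOL, the reductase entry and ACD1 had higher means in S2, and ACD2 had a lower mean in FPKM (3.60 ± 0.0746 against 5.64 ± 7.68, SD, n = 3) but a log2 difference of 0.15 (SE 0.76). Limma called 0 of 4 members, where 0% of genes were called higher and 0.00733% lower. It also had 0 of 4 at an unadjusted p under 0.05, a threshold passed by 12.1% of genes in either direction. The groups overlapped for all 4, where 4.71% of genes had all higher and 6.7% all lower values in S2. ACD1 differed by 1.0 (SE 0.68, adjusted p = 0.492), NOL by 0.47 (SE 0.32, 0.490) and the reductase entry by 0.39 (SE 0.30, 0.528). The median of the 4 was 0.43, beside -0.09 for all genes, of which 42.9% were above 0. Leaving out S1 replicate 1 moved the differences to 1.70 for ACD1 and 1.11 for ACD2, with no member called (limma adjusted p = 0.0913 and 0.207) where 4.69% of genes were called higher and 10.9% lower, and leaving out S2 replicate 3 moved ACD1 to 0.39. ACD2 turned to -0.13 without S1 replicate 2 and to -0.51 without S1 replicate 3.

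In S3_C against S2, all 4 log2 differences were above 0, as for 36.8% of genes, from 0.12 (SE 0.30) for the reductase entry to 0.94 (SE 0.68) for ACD1, and limma called 0 of 4 members and 0% of genes in either direction, with 0 of 4 members and 1.23% of genes at an unadjusted p under 0.05. The groups overlapped for all 4, where 1.5% of genes had all higher and 2.55% all lower values in S3_C. Without S2 replicate 1 the ACD1 difference was 0.32, and without S2 replicate 3 it was 1.54. In S3_S against S2, all 4 were below 0, as for 39.9% of genes, from -0.24 (SE 0.30) for the reductase entry to -0.92 (SE 0.76) for ACD2, and limma called 0 of 4 members and 0% of genes, with 0 of 4 members and 3.29% of genes at an unadjusted p under 0.05. ACD2 was the 1 member whose groups did not overlap there, beside 4.63% of genes with the lower values in S3_S and 11.2% with the higher. In S3_S against S1, ACD1 differed by 0.62 (SE 0.68), the reductase entry by 0.15 (SE 0.30), NOL by -0.14 (SE 0.32) and ACD2 by -0.76 (SE 0.76). For ACD1 this was 1.32 without S1 replicate 1, 0.12 without S1 replicate 2, 0.42 without S1 replicate 3 and 0.35 without S3_S replicate 1. Without S1 replicate 1 NOL was at 0.038, ACD2 at 0.19 and the reductase entry at 0.40, with none called by limma. Limma called 0 of 4 members there, beside 0% of genes higher and 0.00733% lower, and had 0 of 4 members and 5.69% of genes at an unadjusted p under 0.05. The groups overlapped for all 4, where 5.74% of genes had all higher and 3.81% all lower values in S3_S. These comparisons share groups with those above, so they are not separate evidence.

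**Figure D2:**
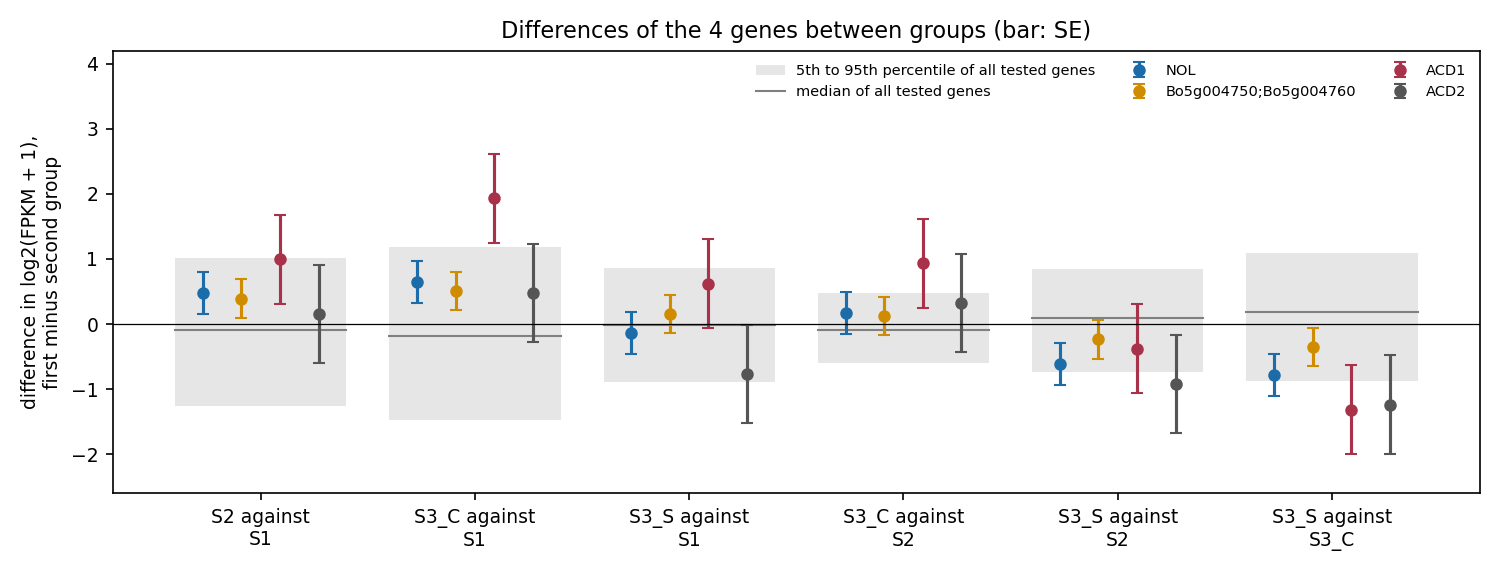
Difference in log2(FPKM + 1) between the groups named on the horizontal axis, first minus second, for the 4 genes (points, with SE as bars) beside the 5th to 95th percentile (grey area) and the median (grey line) of all tested genes. ACD1 has the largest point of the 4 in S3_C against S1 (1.93), and all 4 lie below 0 in S3_S against S3_C.

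Of the 6 pairs of members, 5 were correlated across libraries by Pearson r, and the pair of ACD2 and the reductase entry did not pass. For the pairs other than ACD1 with the reductase entry, many other genes had r as high. By r with ACD1, NOL was 906th and ACD2 2902nd of 27271. By r with NOL, the reductase entry was 699th and ACD2 1713th. On the log2(FPKM + 1) scale, ACD1 and the reductase entry had Pearson r = 0.954 and Spearman rho = 0.867 over the 12 libraries (adjusted permutation p = 0.00018 and 0.00246). For ACD1 and NOL the values were 0.814 and 0.832 (0.00328 and 0.0039), and for NOL and the reductase entry 0.802 and 0.762 (0.00328 and 0.0115). NOL and ACD2 had 0.679 and 0.706 (0.0229 and 0.0199), ACD1 and ACD2 0.624 and 0.650 (0.0356 and 0.0310), and ACD2 and the reductase entry 0.573 and 0.622 (0.0523 and 0.0352). P-values were adjusted over the 6 pairs for each coefficient from 100000 permutations. Libraries of a group share their tissue label. After each group's mean was taken away, r was 0.964 for ACD1 with the reductase entry, 0.793 for ACD1 with NOL and 0.566 to 0.751 for the other 4 pairs. These values have no test. Taking away the group mean leaves differences between libraries of a group, such as that of S1 replicate 1 from the rest of S1.

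Leaving out the 2 libraries farthest from the median of the first gene gave r = 0.937 for ACD1 with the reductase entry, 0.688 for ACD1 with NOL and 0.697 for NOL with the reductase entry. The pairs with ACD2 then had r of 0.467 to 0.552, and without S3_C replicate 2 alone 0 of the 3 ACD2 pairs passed, with r = 0.489 for ACD1 and 0.528 for NOL (adjusted permutation p = 0.137 for each). The reductase entry leaves a gap between 47.6 and 61.3 FPKM, with 5 libraries below and 7 above. Within the 7 above it, r with ACD1 was 0.804 and rho 0.429 (exact permutation p = 0.0861 and 0.354). These 7 were picked by the reductase entry's own values, which narrows its range. The lower r among them therefore cannot tell what the pooled value rests on.

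**Figure D3:**
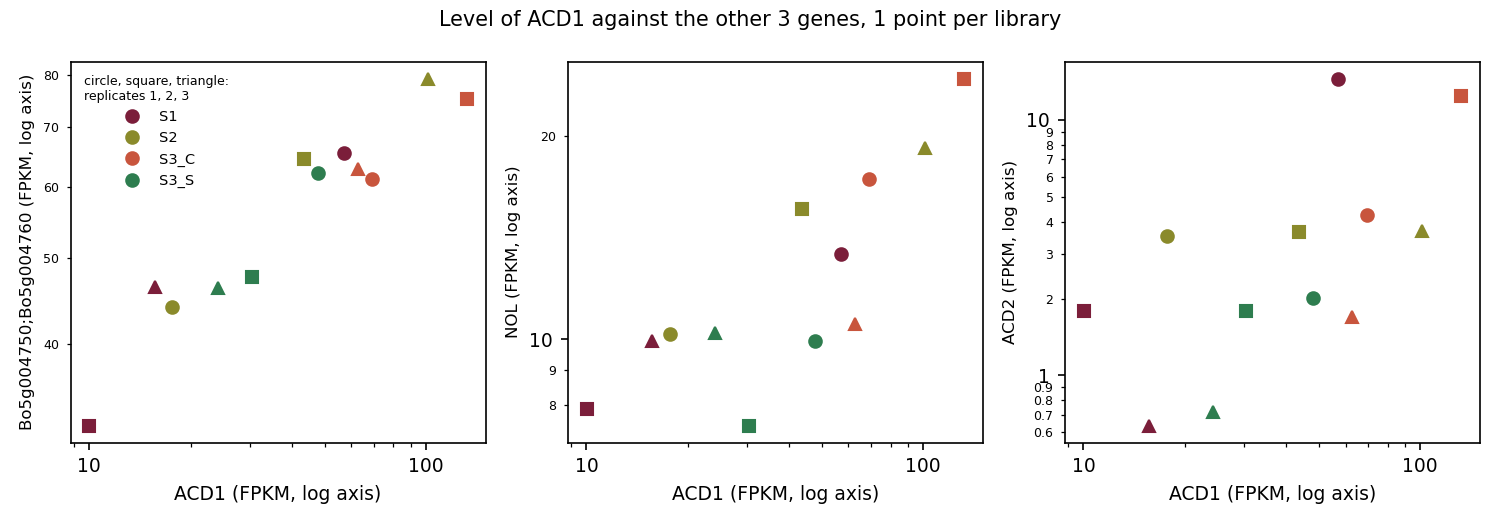
FPKM of ACD1 (horizontal, log axis) against the reductase entry Bo5g004750;Bo5g004760, NOL and ACD2 (vertical, log axes), with 1 point per library, colored by group and shaped by replicate number. The reductase entry follows ACD1 most closely (r = 0.954), and for ACD2 the S1 replicate 1 and S3_C replicate 2 libraries stand above the rest at 14.5 and 12.4 FPKM.

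These coefficients are set against the whole table as a description, with no test. The median r of all other tested genes was -0.30 with ACD1, -0.32 with NOL, -0.23 with ACD2 and -0.26 with the reductase entry. ACD1 was 3rd of 27271 genes by r with the reductase entry, and the reductase entry was 11th by r with ACD1. NOL was 906th and ACD2 2902nd by r with ACD1. By r with NOL the reductase entry was 699th and ACD2 1713th, and by r with the reductase entry ACD2 was 3318th. Among genes with a symbol or a product description, the nearest to ACD1 were the Rossmann-fold protein Bo6g106980 (r = 0.975, with means of 5.21, 12.4, 19.9 and 8.23 FPKM in S1, S2, S3_C and S3_S), the Clp protease subunit Bo3g178270 (0.963) and the methyltransferase Bo4g190670 (0.960). Nearest to NOL were NDH18, annotated as an NAD(P)H dehydrogenase subunit (0.970), the S41 peptidase Bo9g064210 (0.970) and the carboxypeptidase-like gene scpl20 (0.958). Nearest to ACD2 were the abscisic aldehyde oxidase AAO3 (0.911), the inositol oxygenase MIOX1 (0.899) and the entry ATGSTZ2;Bo9g071660 (0.878). Nearest to the reductase entry were the M24 metallopeptidase Bo5g145460 (0.954), Bo6g069950, whose description is a protein of unknown function (0.954), and ACD1. All of these are over the same 12 libraries.

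Other genes of the pathway were sought by a list of 14, of which 8 were matched, the 4 members and 4 more, and 6 of the 8 were tested. Limma called 0 of 2 tested non-members in any of the 6 comparisons with all libraries. At an unadjusted p under 0.05 the count was 1 of 2 in S2 against S1 and in S3_C against S1 (TIC55-II in both), where 12.1% and 21.9% of all genes were under that threshold, and 0 of 2 in the other comparisons.

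The entry Bo3g045460 belongs to the stay-green family, whose members in Arabidopsis remove magnesium from chlorophyll a. It was at 22.5 FPKM in S3_C replicate 2 and between 0.108 and 0.80 FPKM in the other 11 libraries. It did not reach the level for testing. The same library had the highest level of ACD1 and NOL and the second highest of ACD2 and the reductase entry. The related gene Bo6g002180, the homolog of stay-green-like, was at 8.86, 7.90 and 8.04 FPKM in S1, 6.04, 9.60 and 15.5 in S2, 15.8, 16.3 and 7.17 in S3_C and 9.96, 7.10 and 10.6 in S3_S, with overlap between all groups, and its r with NOL was 0.836.

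TIC55-II, whose Arabidopsis counterpart hydroxylates the fluorescent catabolite after ACD2, was at 8.71, 2.01 and 1.45 FPKM in S1, 5.60, 14.7 and 19.1 in S2, 12.1, 11.3 and 6.75 in S3_C and 7.42, 8.10 and 5.78 in S3_S. S1 replicates 2 and 3 were below all other libraries. Its log2 difference was 1.62 (SE 0.53, limma adjusted p = 0.403) in S2 against S1 and 1.37 (SE 0.53, adjusted p = 0.214) in S3_C against S1. Without S1 replicate 1 it rose by 2.23 in S2 (limma adjusted p = 0.0118) and by 1.99 in S3_C (0.0131). In that setting 4.69% of all genes were called higher and 10.9% lower in S2, and 6.41% higher and 16.6% lower in S3_C.

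The chlorophyllase ATCLH1, which removes phytol and in Arabidopsis is linked to defence rather than senescence, went the other way. Its level in S1 was 0.168, 15.3 and 2.38 FPKM, and it did not exceed 0.666 FPKM elsewhere, and it was not tested. A further pair annotated to chlorophyllase activity was picked after values were seen: Bo2g120670 averaged 1.13 ± 0.703, 2.77 ± 0.645, 2.47 ± 0.314 and 2.68 ± 2.10 FPKM in S1, S2, S3_C and S3_S, (SD, n = 3), and Bo9g059330 did not exceed 2.05 FPKM in any library, with neither called by limma in the 6 comparisons. NYC1, SGR1, pheophytinase, MES16, CYP89A9 and CLH2 were not matched by the list and are not analysed here.

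**Figure D4:**
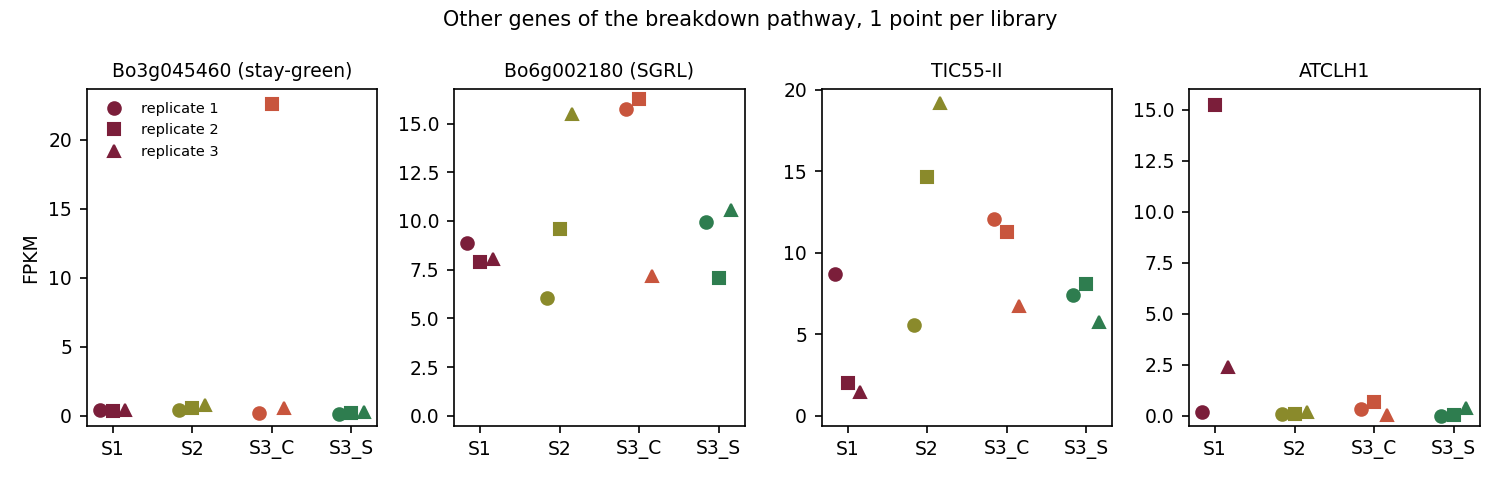
FPKM (vertical axes, each with its own scale) of the other 4 matched genes of the pathway in S1, S2, S3_C and S3_S (horizontal axis), with 1 point per library. Bo3g045460 is at 22.5 FPKM in 1 center library and below 1 in the other 11, ATCLH1 is at 15.3 and 2.38 FPKM in 2 S1 libraries, and TIC55-II is lowest in the same 2.

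Among 16 senescence regulators and markers, 2 were matched. SEN1, a dark-inducible senescence gene, was at 257, 0.172 and 0.149 FPKM in S1, 40.0, 307 and 124 in S2, 55.9, 543 and 145 in S3_C and 23.6, 6.34 and 4.70 in S3_S. Its highest library was again S3_C replicate 2, and its level in S1 replicate 1 was far above the rest of S1, as for ACD1 and ACD2. Its r with the 4 members was 0.839 (ACD1), 0.756 (NOL), 0.770 (ACD2) and 0.846 (the reductase entry). By these values SEN1 was 616th, 1059th, 247th and 345th of 27271 genes, so many other genes had r as high. WRKY53, a senescence regulator, stayed between 0.149 and 0.952 FPKM. Of 4 genes of chlorophyll rebuilding 1 was matched, chlorophyll synthase, whose entry carries the symbol ATG4, at 48.8 ± 13.9, 63.4 ± 20.3, 67.0 ± 31.8 and 45.4 ± 11.3 FPKM in S1, S2, S3_C and S3_S (SD, n = 3), with r of 0.585 to 0.777 with the members.

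Markers of tissue classes varied with the members, the mesophyll genes in the same direction and the xylem gene XCP1 and the epidermal gene CER1 in the opposite one. The mesophyll gene GAPB had r = 0.847 with ACD1, 0.816 with NOL, 0.588 with ACD2 and 0.848 with the reductase entry, and LHCA4 had 0.748, 0.533, 0.479 and 0.744. The epidermal wax gene CER1 had r = -0.87 with ACD1, -0.72 with NOL, -0.54 with ACD2 and -0.78 with the reductase entry, and the xylem gene XCP1 had -0.72, -0.50, -0.60 and -0.72. Many genes had a lower r than XCP1: 20.0%, 36.6%, 21.3% and 13.8% of the other tested genes, for these members in turn. For CER1 the shares were 3.59%, 15.3%, 28.0% and 7.67%. For GAPB and LHCA4, 86.7% to 98.8% of genes had a lower r. CER1 was at 31.3, 5.37 and 47.8 FPKM in S3_C against 107, 223 and 186 in S1 and 41.5, 36.4 and 225 in S3_S. XCP1 was at 0.460, 5.67 and 2.87 FPKM in S1 and at 7.08 FPKM in S3_S replicate 3, and between 0.254 and 0.903 FPKM in the other 8 libraries. The part of these tissue markers in the levels of the breakdown genes was not tested.

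**Figure D5:**
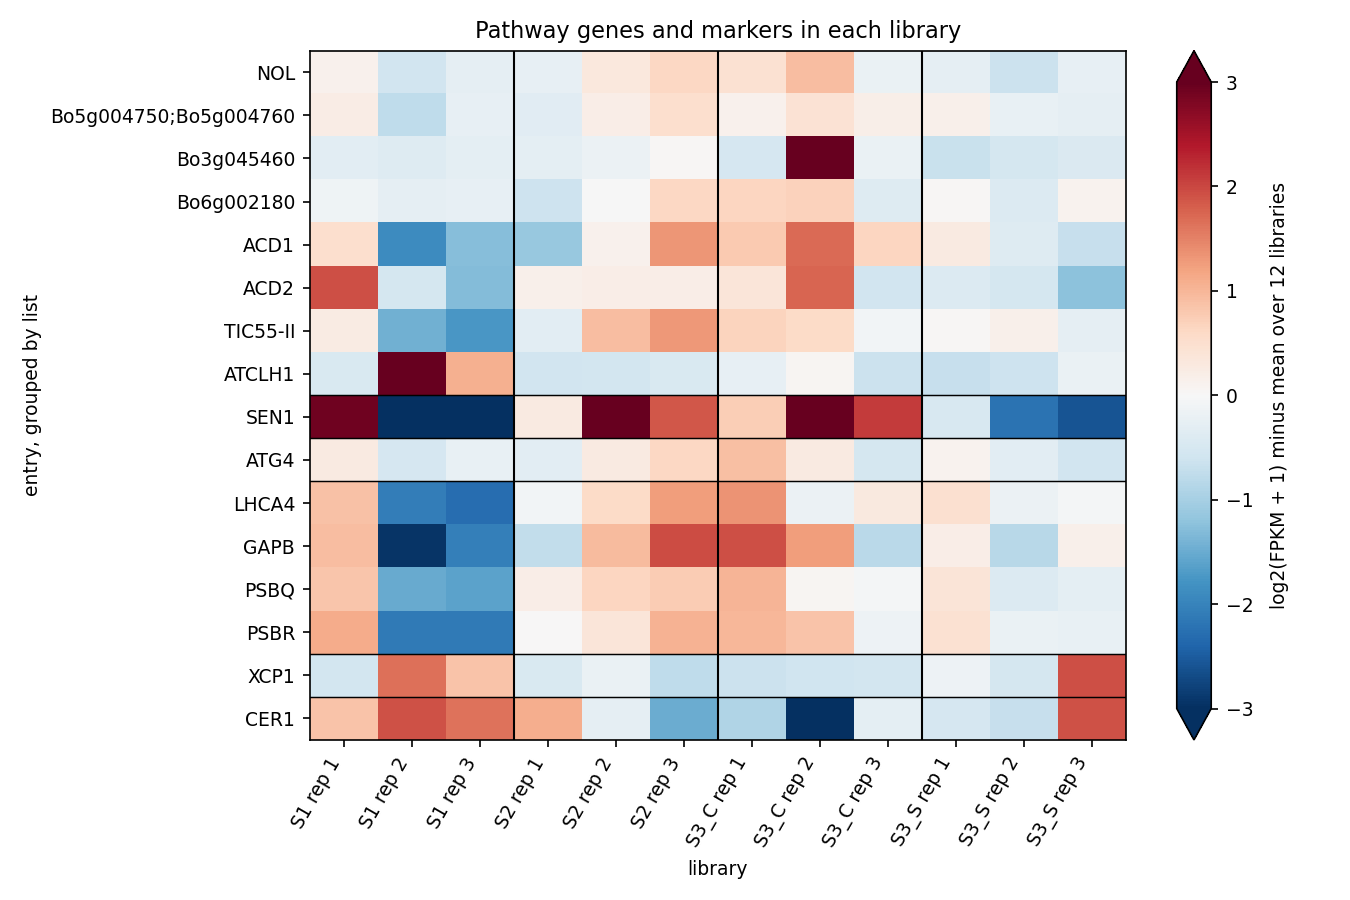
Log2(FPKM + 1) minus its mean over the 12 libraries (color, with values past -3 and 3 shown at the ends) for breakdown genes, SEN1, chlorophyll synthase (ATG4), 4 mesophyll markers, XCP1 and CER1 (rows) in each library (columns). S3_C replicate 2 is high for NOL, ACD1, ACD2, Bo3g045460 and SEN1, and S1 replicates 2 and 3 are low for ACD1, TIC55-II, SEN1 and the mesophyll markers.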

How the data were processed

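Poly(A) RNA from 12 libraries was sequenced in paired-end reads, per the labels' protocols. The authors deposited FPKM per gene and library, per the file headers. StringTie 1.3.0, HISAT2 2.0 and Bowtie 0.12.2 are listed, with no roles, per the submitters' processing notes. The genome build is not given in the sources used here. Read counts were not at hand, so absolute depth is unknown and no counting interval is printed. Entries with at least 1 FPKM in at least 3 libraries (27272) were tested on log2(FPKM + 1), a scale that understates changes of low genes, with limma 3.58.1 in R 4.3.3 (group means, all 12 libraries, eBayes with trend, two-sided). P-values were adjusted by Benjamini-Hochberg over all tested genes within each of 6 comparisons and called under 0.05. Two-sided permutation tests used R and SciPy 1.17.1.

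The members and gene lists were chosen with earlier results of these data known. Lists were matched by projected Arabidopsis identifier, exact symbol or product description. Named genes are the members, every matched pathway gene with a group mean of at least 1 FPKM, the 3 genes with a symbol or product description nearest each member by r, and up to 3 each of the senescence, chlorophyll cycle and vascular lists. Levels of mesophyll and epidermal markers are given beside them. Genes annotated to chlorophyllase activity were added later. Alternatives were pseudocounts of 0.1 and 0.01, no filter, median-of-ratios scaling, leaving out each library, leaving out pairs of libraries, only the groups compared, and the replicate number as a block. The fit was tested on simulated data. Only in S3_S against S3_C did every same-numbered pair of libraries deviate together by over 0.1 (r = 0.268, 0.195 and 0.158), the criterion used for pairing. Single same-numbered pairs also exceeded 0.1 in other comparisons, up to 0.379 in S3_S against S1. So did 11 of 36 pairs with other numbers, and the labels name no shared leaf. No protein or promoter sequence of these genes was at hand, so none is printed.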

Additional observations from a re-analysis of the deposited data

How the results depend on the processing

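With all 12 libraries limma called 0 of 4 members in each comparison, and 1 (ACD1 in S3_C against S1) without S1 replicate 1 or without S1 replicate 1 and S3_S replicate 3 together (0 to 1 when single libraries were left out). With the replicate number as a block the count stayed at 0 in all 6 comparisons, and a block over the 6 libraries of S3_S and S3_C, chosen after seeing the data, also gave 0 (ACD1 adjusted p = 0.283). Pseudocounts of 0.1 and 0.01, no filter, scaling and the fit on only the groups compared changed no call and no direction of a member. Directions that turned did so through left-out libraries, and the cause was not tested. Leaving out 1 library gave ranges of log2 differences of -0.51 to 1.11 for ACD2 in S2 against S1, -0.19 to 1.43 for ACD2 in S3_C against S1, -1.43 to 0.19 for ACD2, -0.31 to 0.038 for NOL and -0.094 to 0.40 for the reductase entry in S3_S against S1, -0.29 to 0.87 for ACD2, -0.099 to 0.47 for NOL and -0.11 to 0.31 for the reductase entry in S3_C against S2, and -1.0 to 0.23 for ACD1 in S3_S against S2. Without S1 replicate 1 and S3_S replicate 3 together ACD2 was at 0.44 in S3_S against S1. Without S1 replicate 1 and S3_C replicate 2 together (chosen after seeing the data), NOL was at 0.038 and ACD2 at 0.19 in S3_S against S1, and NOL at -0.099 and ACD2 at -0.29 in S3_C against S2. Of 6 member pairs 5 passed the Pearson test, 3 to 6 when single libraries were left out, 6 with scaling and 3 without S1 replicate 1 and S3_C replicate 2 together. Values near 1 FPKM, as for ACD2, are the least precise, and depth limits them by an unknown amount.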
